A study of Mus musculus with 2 samples.

Results

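The immunity-related GTPases are a family of interferon-inducible enzymes, and 8 of the 33696 features in the expression matrices belonged to the set described here. The members were chosen by gene symbol and comprised the 3 regulators Irgm1, Irgm2 and Igtp and the 5 effectors Iigp1, Tgtp1, Tgtp2, Ifi47 and Gm4951. All 8 were found in both matrices. The cells came from whole colons of mice aged 6 months. Mice of the Il10ra ff; Pdgfra-cre genotype carried floxed alleles of Il10ra, the ligand-binding chain of the interleukin 10 receptor, together with a Cre recombinase driven by Pdgfra, and their library is called the Cre library. Il10ra ff mice carried the same floxed alleles without Cre, and theirs is called the control library. The design text gives 2 mice per genotype, and each genotype was deposited as 1 library. The sort kept living Podoplanin+ cells and removed cells with CD45, CD31 or EpCAM, so the classes below are stromal cells that passed this gate. The series title places the work on interleukin 10 signalling in fibroblasts and type I interferon.

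In mouse cells, regulators of this family sit on the cell's own membranes and hold the effectors in their inactive, GDP-bound state. Effectors that escape this control load onto the vacuoles of intracellular parasites and bacteria, bind GTP and break the vacuole membrane. Interferon gamma is the best known inducer of the family, type I interferon also induces members, and the autophagy conjugation machinery helps to direct effectors to their target membranes.

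The promoters of the members that RefSeq places on chromosome 11 are shown because the members moved together between the libraries. RefSeq start sites (build GRCm38.p6) were matched for 6 of the 8 members by symbol, and Iigp1 and Gm4951 had no entry. The 250 bases before each start were searched on both strands for TTCNNNGAA, the letters of a gamma-activated site. They were also searched for GAAANNGAAA, or its complement TTTCNNTTTC, the core of an interferon-stimulated response element. TTCNNNGAA was found in 4 of the 6 promoters and in 7.02% of 32851 RefSeq windows of the same length. GAAANNGAAA was found in 5 of the 6 and in 2.98% of the windows. Both occurred together in 4 members and in 0.332% of the windows, and in each of these 4 the motifs lay 2 bases apart without overlap. The last 100 bases before the start are printed 5′ to 3′ on the strand of the gene, with matched letters in capitals.
Irgm1 (chr11:48871421-48871520, minus strand): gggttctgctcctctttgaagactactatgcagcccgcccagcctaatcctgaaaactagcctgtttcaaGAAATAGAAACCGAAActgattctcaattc
Irgm2 (chr11:58214877-58214976, plus strand): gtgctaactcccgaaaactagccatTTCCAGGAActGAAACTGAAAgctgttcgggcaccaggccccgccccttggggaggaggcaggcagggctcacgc
Igtp (chr11:58199456-58199555, plus strand): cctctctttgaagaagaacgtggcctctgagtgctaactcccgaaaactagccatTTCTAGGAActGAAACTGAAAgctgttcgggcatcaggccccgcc
Tgtp1 (chr11:48992247-48992346, minus strand): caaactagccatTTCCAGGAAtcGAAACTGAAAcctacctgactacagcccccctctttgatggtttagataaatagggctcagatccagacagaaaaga
Tgtp2 (chr11:49064213-49064312, minus strand): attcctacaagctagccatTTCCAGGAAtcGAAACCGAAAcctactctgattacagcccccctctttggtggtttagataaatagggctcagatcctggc
Ifi47 (chr11:49076487-49076586, plus strand): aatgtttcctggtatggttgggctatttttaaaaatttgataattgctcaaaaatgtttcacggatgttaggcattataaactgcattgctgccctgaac
Irgm2 and Igtp shared the arrangement of TTCNNNGAA followed by GAAANNGAAA, and so did Tgtp1 and Tgtp2. Within each of these pairs the printed bases around the motifs were also nearly the same. The 4 members with both motifs are therefore not independent promoters when set against the share of all windows. The first base of TTCNNNGAA lay 75 bases before the start in Irgm2, 45 in Igtp, 88 in Tgtp1 and 81 in Tgtp2. In Irgm1 the capitals hold 2 overlapping matches of GAAANNGAAA. For Ifi47 neither set of letters was found in the window searched, which says nothing of other windows. A match of letters is a description of the sequence and not a measured binding site.

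Transcripts were counted by unique molecular identifiers (UMIs), which mark each captured molecule once, and levels are given as UMIs of a gene per 1000000 UMIs of the cells summed (CPM). The Cre library held 8627 barcodes and 66845139 UMIs, and the control library 11380 barcodes and 76570611 UMIs. After filtering and removal of called doublets, 8302 cells of the Cre library and 10657 of the control library were kept, with median depths of 7410 UMIs per cell in the Cre library and 6574 in the control library. A total of 115 cell barcodes occurred in both libraries. Cells with at least 4 of 6 fibroblast markers and no other type's gate passed made up 7470 cells of the Cre library and 9347 of the control library. Il10ra had 5 UMIs in these cells in the Cre library and 1 in the control library, too few to check the deletion. With 1 library per genotype, cells are not replicates, no test between genotypes was possible, and genotype cannot be told apart from library. The 95% intervals below cover counting error only. Levels of a gene are compared across libraries and classes, and genes are not ranked against each other by level. Shares of member UMIs are likewise read across libraries and classes.

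Every member had a higher level in fibroblast-gated cells of the Cre library than in those of the control library. The 8 members together had 1125 CPM in the Cre library and 179 CPM in the control library, a ratio of 6.27 (95% interval 6.15 to 6.40). The regulators together stood 4.32-fold higher (4.19 to 4.45) and the effectors 7.92-fold higher (7.71 to 8.13), so the intervals of the 2 groups did not meet. Genes averaging 10 CPM or more over both libraries count as measured. Of the 7 members measured, 7 were at least 1.5-fold higher, against 3.83% of the 9042 genes measured in these cells, and 0 were lower by that fold, against 3.17%. Gm4951 passed that minimum only through its level in the Cre library, and Tgtp1 did not pass it. The median log2 ratio of the 7 was 2.68, and that of all genes measured was -0.04. By ratio they ranked 13 (Iigp1), 15 (Gm4951), 17 (Tgtp2), 18 (Ifi47), 20 (Igtp), 27 (Irgm1) and 88 (Irgm2) among those genes.

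Among the regulators, Igtp, also known as Irgm3 and found on the endoplasmic reticulum and lipid droplets, had the highest ratio. It had 96.1 CPM in the Cre library and 15.7 CPM in the control library, a ratio of 6.12 (5.73 to 6.55). Irgm1, found on Golgi, lysosomal and mitochondrial membranes, had 156 CPM in the Cre library and 30.4 CPM in the control library, a ratio of 5.13 (4.88 to 5.38). Irgm2, which localises to the Golgi, had 102 CPM in the Cre library and 35.8 CPM in the control library. Its ratio of 2.85 (2.72 to 2.99) was the lowest of the 7 measured members, with an interval below those of the other regulators.

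The effectors were led by Iigp1, known as Irga6, an effector that coats Toxoplasma vacuoles. Iigp1 had 446 CPM in the Cre library and 49.6 CPM in the control library, a ratio of 9.0 (8.68 to 9.34). Gm4951 had 63.1 CPM in the Cre library and 7.05 CPM in the control library, a ratio of 8.95 (8.12 to 9.88) whose interval overlapped that of Iigp1. With 10 CPM added before the log2 ratio, that of Gm4951 was 2.10 and that of Iigp1 2.94, so this overlap depends on the amount added. Ifi47, known as Irgd, had 139 CPM in the Cre library and 20.9 CPM in the control library, a ratio of 6.65 (6.28 to 7.04). The ratios of Ifi47, Tgtp2 and Igtp had overlapping intervals, so these effectors and this regulator could not be ranked beyond counting error.

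Tgtp1 and Tgtp2 encode nearly identical copies of the effector Irgb6, and their counts are uncertain as separate genes. In an annotation of the earlier build GRCm38, 74.8% of the 90-base windows of Tgtp1 and 82.3% of those of Tgtp2 occurred in another gene of the family, chiefly the other copy. Tgtp2 had 112 CPM in the Cre library and 16.4 CPM in the control library, a ratio of 6.82 (6.39 to 7.28). Tgtp1 had 11 CPM in the Cre library and 3.44 CPM in the control library, a ratio of 3.20 (2.74 to 3.73). Summed, they had 123 CPM in the Cre library and 19.8 CPM in the control library, a ratio of 6.19 (5.83 to 6.57). Igtp shared 6.13% of its windows and Irgm2 3.57%, and within the first 500 bases, nearer to where a 5' kit reads, 17.4% for Igtp and 11.8% for Irgm2. In the first 500 bases the share was 47.1% for Tgtp1 and 72.0% for Tgtp2, and the other members shared none within the family.

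**Figure D1:**
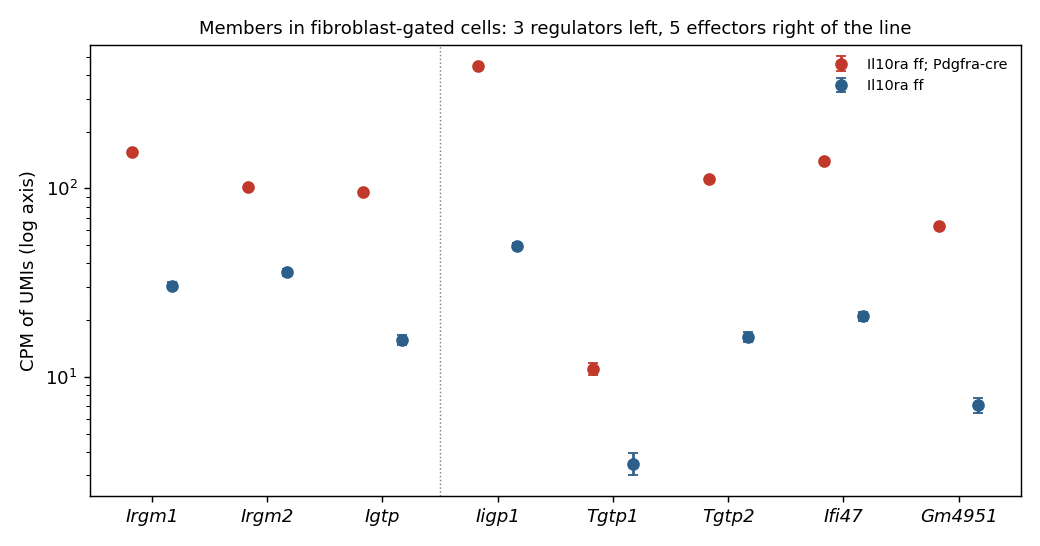
Levels of the 8 members in fibroblast-gated cells, in CPM on a log axis, with regulators left of the dotted line and effectors right of it; points are sums over each library and bars are exact Poisson 95% intervals. Each Cre point lies above its control point, with a wide gap on this scale for Iigp1 (446 CPM in Cre, 49.6 CPM in control) and a narrow one for Irgm2 (102 CPM in Cre, 35.8 CPM in control).

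The make-up of the family differed between the libraries. Regulators supplied 31.5% of the member UMIs in fibroblast-gated cells of the Cre library (Clopper-Pearson 95% interval 31.1 to 31.8%) and 45.7% in those of the control library (44.8 to 46.6%). Iigp1 alone supplied 39.7% of the member UMIs in the Cre library and 27.6% in the control library. Irgm2 showed the opposite, with 9.07% in the Cre library and 19.98% in the control library. Igtp held a similar share of the family, 8.54% in the Cre library and 8.76% in the control library.

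Stromal classes were gated on the number of distinct markers with a UMI in each cell. All UMIs of a cell were used, so passing a gate depends on depth. Median depth was 8695.5 UMIs in the Cre library and 6174 in the control library for Pi16-gated cells, and 6870 and 5185 for other fibroblasts. It was 7569 and 7847 for subepithelial-like and 7407.5 and 7489 for Adamdec1-gated cells, and the part of depth in the class results was not tested. Subepithelial-like fibroblasts had at least 5 of 8 markers such as Sox6, Bmp3 and F3, with 396 cells in the Cre library and 1195 in the control library. Adamdec1-gated fibroblasts had at least 2 of Adamdec1, Edil3 and Frmpd4, which mark lamina propria fibroblasts, and none of Pi16, Ackr4 and Dpp4. They numbered 2166 in the Cre library and 3351 in the control library. Cells past the subepithelial gate were set apart first, although Adamdec1, Edil3 and Frmpd4 were also high in them. Summed, these genes had 2666 CPM in subepithelial-like cells of the Cre library and 2636 CPM in those of the control library. Adamdec1-gated cells had 3670 CPM in the Cre library and 2590 CPM in the control library. Pi16-gated fibroblasts had at least 1 of Pi16, Ackr4 and Dpp4, markers of adventitial or trophocyte fibroblasts, and no Adamdec1-gate marker. They numbered 2996 in the Cre library and 2431 in the control library. The remaining fibroblast-gated cells, whose leading genes included Kcnn3 and Ces1d, numbered 1912 in the Cre library and 2370 in the control library. Smooth muscle-like cells, led by Myh11 and Actg2, numbered 186 in the Cre library and 708 in the control library, and glia-like cells, with Nkain2 and Cdh19 among their leading genes, numbered 112 in the Cre library and 66 in the control library. Cells exactly at the threshold numbered 125 in the Cre library and 482 in the control library for the subepithelial gate, and 778 in the Cre library and 1922 in the control library for the Adamdec1 gate. For the Pi16 gate, 1626 cells of the Cre library and 1359 of the control library sat at its threshold of 1 marker. Summed Pi16, Ackr4 and Dpp4 in Pi16-gated cells had 1086 CPM in the Cre library and 2076 CPM in the control library. Pdgfra, the gene whose promoter drives Cre, had its highest level in subepithelial-like cells, 1267 CPM in the Cre library and 931 CPM in the control library. In glia-like cells it had 11.5 CPM in the Cre library and 9.74 CPM in the control library.

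The members were higher in the Cre library in each of the 4 fibroblast classes, with the smallest ratio in subepithelial-like and the largest in Pi16-gated cells. In subepithelial-like cells the family had 1257 CPM in the Cre library and 301 CPM in the control library, a ratio of 4.17 (3.98 to 4.37). In Pi16-gated cells it had 938 CPM in the Cre library and 90.5 CPM in the control library, a ratio of 10.4 (9.82 to 10.9). Between these lay Adamdec1-gated cells with a ratio of 7.60 (7.38 to 7.84) and other fibroblasts with 6.27 (6.00 to 6.56). All 8 members were measured and past 1.5-fold higher in subepithelial-like cells, against 6.07% of the genes measured there, and 0 were lower by that fold, against 4.33%. In each of the other 3 classes the 7 members measured, without Tgtp1, were past this fold and 0 were lower. Gm4951 reached the minimum only through its Cre level in these 3 classes, and so did Igtp, Tgtp2 and Ifi47 in Pi16-gated cells, so 4 of the 7 there were admitted by the level that was counted. The background higher was 5.3% in Adamdec1-gated, 4.84% in Pi16-gated and 4.58% in other fibroblasts. The background lower was 3.14% in Adamdec1-gated, 1.98% in Pi16-gated and 4.09% in other fibroblasts.

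The order of the classes differed between the libraries. In the control library subepithelial-like cells had the highest level and Pi16-gated cells the lowest for each of the 8 members, and the family level differed 3.33-fold (3.13 to 3.55) between these classes. In the Cre library Adamdec1-gated cells had the highest family level, 1468 CPM, and Pi16-gated cells the lowest, 938 CPM, a difference of 1.57-fold (1.54 to 1.59). The summed regulators were nearly level across classes in the Cre library, 1.13-fold between highest and lowest, against 2.69-fold in the control library. Single regulators were not level in the Cre library, since Irgm1 had 171 CPM in Pi16-gated and 128 CPM in Adamdec1-gated cells, whereas Irgm2 had 79.0 CPM in Pi16-gated and 149.8 CPM in Adamdec1-gated cells. The effectors spanned 1.81-fold in the Cre library and 4.12-fold in the control library.

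Tgtp2 had the widest ratio of any member in a fibroblast class. In Pi16-gated cells it had 79.1 CPM in the Cre library and 2.48 CPM in the control library, where 39 UMIs were counted, a ratio of 31.9 (23.3 to 45.0). Its log2 ratio there was 4.53 with 1 CPM added and 2.84 with 10 CPM added. With 2000 UMIs drawn from each cell, Tgtp2 was detected in 0.354% of Pi16-gated cells of the control library. Lgals4 of epithelium was detected in 0.708% of the same cells. Other genes of other lineages lay below Tgtp2, Hbb-bs at 0.221%, Cd74 at 0.177%, Jchain at 0.0885% and Epcam at 0%. The interval of each of these genes overlapped that of Tgtp2. The control level of Tgtp2 could thus not be told apart from theirs, and the size of its ratio is uncertain. In subepithelial-like cells it had 143 CPM in the Cre library and 27.1 CPM in the control library, a ratio of 5.27 (4.53 to 6.14). In the Cre library its highest fibroblast level was 178 CPM in Adamdec1-gated cells, 2.25-fold the lowest in Pi16-gated cells. In the control library the highest, in subepithelial-like cells, was 10.9-fold the lowest in Pi16-gated cells, subject to the shared sequence with Tgtp1. Summed with Tgtp1, the ratio in Pi16-gated cells was 28.2 (21.2 to 38.4).

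Irgm2 had a low ratio in subepithelial-like cells and a higher one in Pi16-gated cells. It had 115 CPM in the Cre library and 64.7 CPM in the control library in subepithelial-like cells, a ratio of 1.79 (1.57 to 2.03). In Pi16-gated cells it had 79.0 CPM in the Cre library and 12.8 CPM in the control library, a ratio of 6.18 (5.35 to 7.18). Irgm1 in Pi16-gated cells had the same ratio within counting error, 6.20 (5.62 to 6.86), from 171 CPM in the Cre library and 27.5 CPM in the control library. Irgm1 was also the member with the flattest levels across fibroblast classes of the control library, 1.5-fold between highest and lowest. In the Cre library its level in Pi16-gated cells could not be told apart from that in other fibroblasts, 166 CPM, by counting error.

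Iigp1 kept a high level in each fibroblast class of the Cre library. It had 639 CPM in Adamdec1-gated, 508 CPM in subepithelial-like, 412 CPM in other and 335 CPM in Pi16-gated cells of the Cre library, with intervals that did not meet. In the control library it had 53.5 CPM in Adamdec1-gated, 87.1 CPM in subepithelial-like, 42.5 CPM in other and 25.1 CPM in Pi16-gated cells. Ifi47 differed in order, with its lowest fibroblast level in the Cre library in subepithelial-like cells, 115 CPM, whose interval met that of Pi16-gated cells at 122 CPM.

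Smooth muscle-like cells had larger ratios than any fibroblast class taken as a whole. The family had 1472 CPM in the Cre library and 103 CPM in the control library, a ratio of 14.4 (13.03 to 15.8). All 7 measured members were at least 1.5-fold higher, against 7.6% of the genes measured in these cells, and 0 were lower by that fold, against 5.52%. Gm4951 was measured there only through its Cre level, with 46.5 CPM in the Cre library and 2.58 CPM in the control library. Ifi47 had 267 CPM in the Cre library and 10.9 CPM in the control library, a ratio of 24.4 (18.3 to 33.0), and Iigp1 had 507 CPM in the Cre library and 25.4 CPM in the control library. With 2000 UMIs drawn from each cell of this class in the control library, Ifi47 was detected in 1.60%, Iigp1 in 2.33% and Gm4951 in 0.582%. Jchain, the highest there of the genes of other lineages, was detected in 0.873%. Its interval overlapped each of theirs, so the size of these single-gene differences is uncertain. Tgtp1 had 25 UMIs, or 17.9 CPM, in the Cre library and 0 UMIs of 5034137 in the control library. Against a floor of 3 UMIs in the control library Tgtp1 was at least 30.0-fold higher, and with the counting error of both libraries the exact 95% lower limit was 22.6-fold. Summed fibroblast markers had 5195 CPM in smooth muscle-like cells of the Cre library and 5918 CPM in those of the control library. Adamdec1, Edil3 and Frmpd4 summed had 1505 CPM in the Cre library and 707 CPM in the control library, Pi16, Ackr4 and Dpp4 had 62.2 CPM in the Cre library and 17.5 CPM in the control library, and Pdgfra had 120.1 CPM in the Cre library and 54.6 CPM in the control library. These markers of fibroblast subsets moved with the members in this class, and their part in the result was not tested.

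Glia-like cells stood apart in the regulators. Irgm1 had 423 CPM in the Cre library and 422 CPM in the control library, a ratio of 1.0 (0.809 to 1.25). Irgm2 had 266 CPM in the Cre library and 159 CPM in the control library, and Igtp had 348 CPM in the Cre library and 166 CPM in the control library. In the control library each regulator thus had a higher level in glia-like cells than in any fibroblast class. The effectors differed widely between the libraries, with Iigp1 at 630.1 CPM in the Cre library and 77.9 CPM in the control library, and Tgtp2 at 361 CPM in the Cre library and 26.0 CPM in the control library. Gm4951 had 135 UMIs in the Cre library and 2 in the control library, a ratio of 34.1 with a counting interval of 9.26 to 284. The count at or past 1.5-fold was 6 of 7 measured, with Irgm1 as the exception, against 17.1% of all genes measured in these few cells, and 0 were lower by that fold, against 12.4%. Gm4951 was again measured only through its Cre level. The control values rest on 66 cells and 307890 UMIs. Summed fibroblast markers had 1984 CPM in glia-like cells of the Cre library and 1494 CPM in those of the control library, and their part was not tested.

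**Figure D2:**
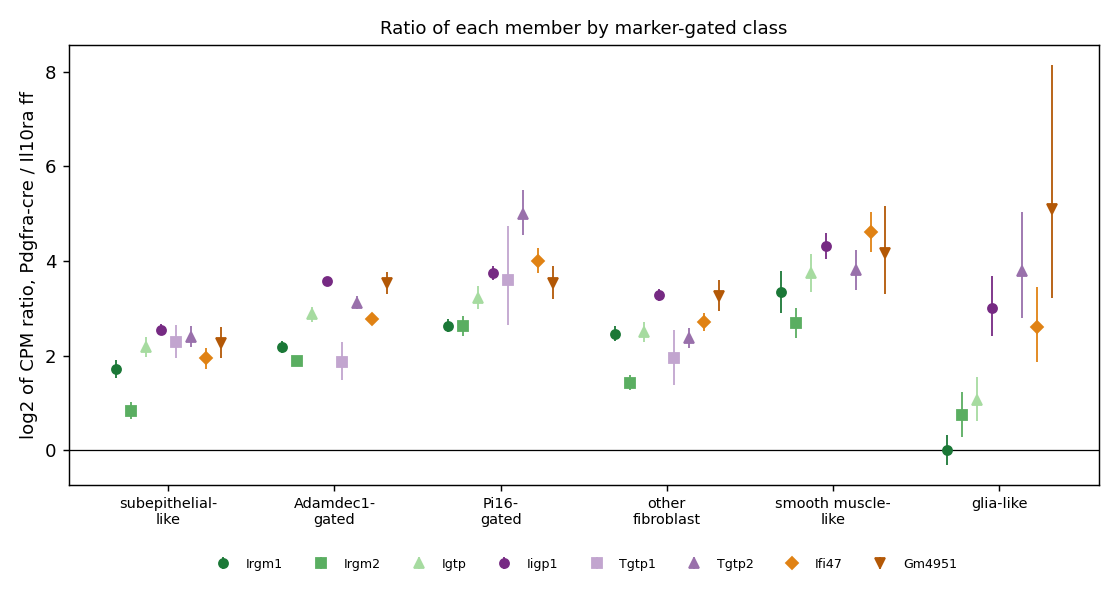
Log2 ratio of CPM, Cre over control, for each member in the marker-gated classes, with exact 95% intervals for counting error; Tgtp1 is not drawn in smooth muscle-like and glia-like cells, where the control library had 0 UMIs. Points lie above 0 in each fibroblast class, and Irgm1 in glia-like cells lies at 0. Tgtp2 stands highest in Pi16-gated cells at a ratio of 31.9, over a control level of 39 UMIs not told apart from that of genes of other lineages.

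The regulator share was lower in the Cre library in all 6 classes compared. In Pi16-gated cells it was 36.2% in the Cre library and 55.2% in the control library, and in Adamdec1-gated cells 26.2% in the Cre library and 43.2% in the control library. In smooth muscle-like cells it was 31.6% in the Cre library and 50.2% in the control library. Glia-like cells had the widest gap, 40.3% (37.8 to 42.7%) in the Cre library and 82.1% (77.1 to 86.4%) in the control library, where Irgm1 alone made up 46.4% of the member UMIs. Among fibroblasts, Pi16-gated cells had the highest share and Adamdec1-gated cells the lowest in both libraries, although in the control library the interval of Adamdec1-gated cells overlapped that of subepithelial-like cells.

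**Figure D3:**
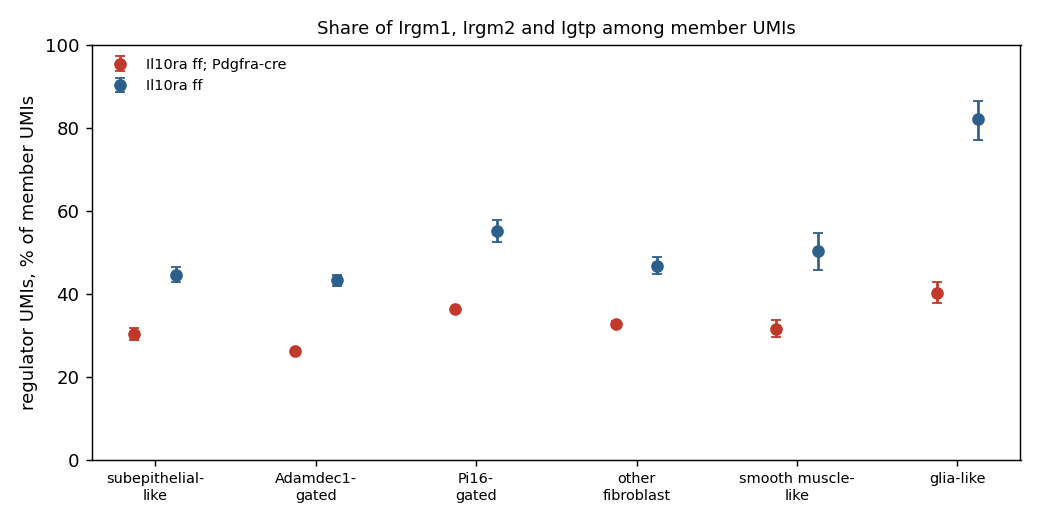
Share of Irgm1, Irgm2 and Igtp among the UMIs of all 8 members, in %, per class and library, with Clopper-Pearson 95% intervals. The Cre point lies below the control point in each of the 6 classes, and the highest share is that of glia-like cells of the control library at 82.1%.

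Mesothelium-like, lymphatic endothelium-like and Cajal-like cells had fewer than 50 cells in a library, and their values are given side by side. The family had 658 CPM in the Cre library and 282 CPM in the control library in mesothelium-like cells. It had 1542 CPM in the Cre library and 177 CPM in the control library in lymphatic endothelium-like cells, the control level from 26 UMIs. It had 500.2 CPM in the Cre library and 253 CPM in the control library in Cajal-like cells. In Cajal-like cells the regulator share was 57.3% in the Cre library and 58.0% in the control library, with intervals that overlapped.

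Shares of cells with a UMI depend on depth, so 2000 UMIs were drawn at random from each cell. Cells with fewer were not used, which removed 301 fibroblast-gated cells of the Cre library and 603 of the control library. At least 1 member was detected in 58.2% of 7169 fibroblast-gated cells of the Cre library and in 21.7% of 8744 of the control library. Without thinning the shares were 77.8% in the Cre library and 44.1% in the control library. A regulator was detected in 38.0% of cells of the Cre library and 12.9% of the control library, and an effector in 46.4% of the Cre library and 11.97% of the control library. The effector share counts 5 genes and the regulator share 3, so each is read across libraries and not against the other. No stromal class is known to lack these genes, so genes of other lineages are given for comparison. In fibroblast-gated cells, Lgals4 of epithelium was detected in 0.879% of the Cre library and 0.652% of the control library, and Jchain of plasma cells in 1.30% of the Cre library and 1.13% of the control library. Others differed between the libraries, with Cd74 in 2.80% of the Cre library and 0.663% of the control library and Hbb-bs in 0.697% of the Cre library and 0.160% of the control library. Jchain also differed between classes of the Cre library, with 3.65% of Adamdec1-gated and 0.0684% of Pi16-gated cells. These genes therefore do not measure free RNA alone.

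Iigp1 was detected in 33.0% of fibroblast-gated cells of the Cre library and 5.62% of those of the control library. Irgm2 was detected in 16.3% of the Cre library and 6.38% of the control library. Irgm1 was detected in 20.4% of the Cre library and 5.03% of the control library. Gm4951, at 9.39% in the Cre library and 1.18% in the control library, lay near Jchain in the control library, and Tgtp1, at 1.62% in the Cre library and 0.686% in the control library, lay at or below the highest of these genes in both libraries. Over all fibroblast-gated cells, shares at that height could not be told apart from those of the genes of other lineages. Tgtp1 stood above those genes in subepithelial-like cells, with intervals that overlapped. It was detected there in 6.89% of the Cre library, where Cd74 was the highest of them at 3.32%. The control library had Tgtp1 at 2.43%, with Lgals4 the highest of them at 0.924%.

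By class, detection was widest in glia-like cells and, among fibroblasts, in Adamdec1-gated cells of the Cre library. Iigp1 was detected in 43.6% of Adamdec1-gated cells of the Cre library and 6.75% of those of the control library. In glia-like cells Irgm1 was detected in 40.2% of the Cre library and 43.3% of the control library, whereas Tgtp2 was detected in 37.4% of the Cre library and 1.67% of the control library. In Pi16-gated cells any member was detected in 49.5% of the Cre library and 11.01% of the control library.

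**Figure D4:**
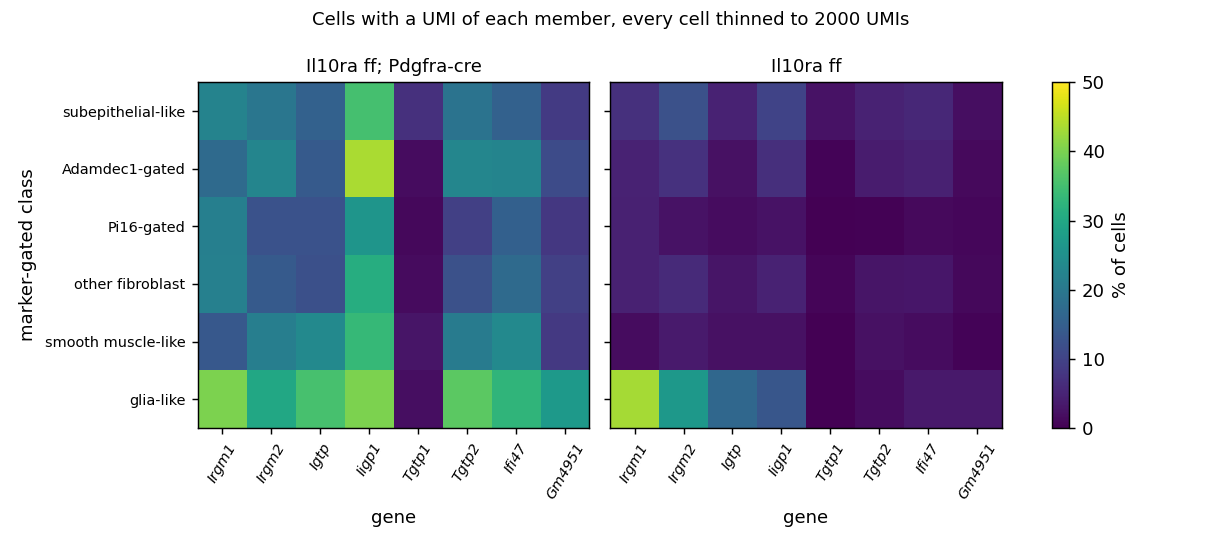
Share of cells with a UMI of each member, in % by colour, in the marker-gated classes of the Cre library (left) and the control library (right), every cell thinned to 2000 UMIs. In the control library the brightest field is Irgm1 in glia-like cells at 43.3%, and in the Cre library Iigp1 reaches 43.6% in Adamdec1-gated cells.

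Several members were often found in the same cell of the Cre library. A thinned fibroblast-gated cell held a mean of 1.27 members in the Cre library and 0.279 in the control library. At least 4 members were detected in 9.50% of cells in the Cre library and 0.297% in the control library. No member was detected in 41.8% of cells in the Cre library and 78.3% in the control library, so the Cre library still held many cells in which the family was not detectable at this depth. The tenth of cells with the most member UMIs held 44.7% of these UMIs in the Cre library and 66.7% in the control library. Few member UMIs per cell raise this share by themselves, so it does not compare how concentrated the family was. In glia-like cells at least 4 members were detected in 31.8% of the Cre library and 1.67% of the control library.

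**Figure D5:**
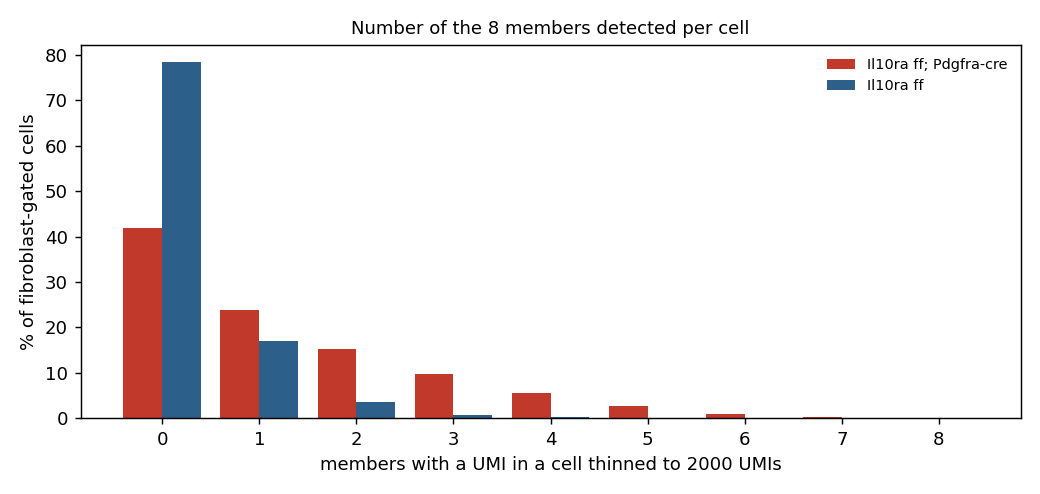
Share of fibroblast-gated cells, in %, by the number of the 8 members with a UMI after thinning to 2000 UMIs, with 7169 cells in the Cre library and 8744 in the control library. Cells with 0 members make up 41.8% of the Cre library and 78.3% of the control library, and Cre bars exceed control bars from 1 to 7 members.

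Regulators and effectors were compared within cells. Both kinds were detected in 26.2% of fibroblast-gated cells in the Cre library and 3.15% in the control library. An effector without a regulator was detected in 20.2% of cells in the Cre library and 8.83% in the control library, and a regulator without an effector in 11.8% of the Cre library and 9.71% of the control library. In the Cre library an effector was detected in 69.0% (67.2 to 70.7%) of cells with a regulator UMI and in 32.6% (31.2 to 34.0%) of those without. In the control library these shares were 24.5% (22.0 to 27.1%) and 10.1% (9.46 to 10.8%). A cell in which a regulator was not detected at 2000 UMIs may still hold its transcript.

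Markers of other cells were counted in the same fibroblast-gated cells. Summed leukocyte markers had 35.3 CPM in the Cre library, with 10 of 10 markers present, and 28.8 CPM in the control library, with 9 of 10 present and Cd3e at 0. Erythroid markers had 115 CPM in the Cre library and 0.553 CPM in the control library, with 4 of 4 present in both. Epithelial markers had 4.998 CPM in the Cre library and 4.18 CPM in the control library, with Cdh1 at 0 in both. Blood endothelial markers had 37.8 CPM in the Cre library, with Cdh5 at 0, and 32.4 CPM in the control library, and pericyte markers had 99 CPM in the Cre library and 69.5 CPM in the control library. Ptprc, which encodes CD45, had a UMI in 0.108% of kept cells of the Cre library and 0.0563% of the control library. Mesothelial markers had 32.6 CPM in the Cre library and 9.85 CPM in the control library in Pi16-gated cells, and 21.9 CPM in the Cre library and 6.51 CPM in the control library in other fibroblasts. The erythroid, pericyte and mesothelial markers moved with the members, and their part in the result was not tested.

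Genes of the surrounding pathway were described from lists chosen with earlier results of these data known, in fibroblast-gated cells. Of 14 further names of the family, 6 were found as features and 3 were measured. All 3 stood past 1.5-fold higher, against 3.83% of all genes measured, and their median log2 ratio was 1.02. F830016B08Rik, measured only through its Cre level, had 15.1 CPM in the Cre library and 6.05 CPM in the control library. Gm12185 had 35.1 CPM in the Cre library and 16.8 CPM in the control library. The ratio of F830016B08Rik, 2.49 (2.21 to 2.81), overlapped that of Irgm2 within counting error.

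Among interferon receptors, Janus kinases, STAT and IRF factors, 6 of the 14 genes measured were past 1.5-fold upwards, against 3.83% of all genes. Past it downwards were 0, against 3.17%, and the median log2 ratio was 0.33. By class, 2 of 14 were past it upwards in subepithelial-like cells, against 6.07% of all genes. In Adamdec1-gated cells 6 of 14 were, against 5.3%, in Pi16-gated cells 7 of 14, against 4.84%, and in other fibroblasts 6 of 14, against 4.58%. Nlrc5, a transactivator of MHC class I genes, had 45.6 CPM in the Cre library and 10.5 CPM in the control library. Irf1, an interferon-induced transcription factor, had 619 CPM in the Cre library and 397 CPM in the control library. In subepithelial-like cells Irf1 was lower in the Cre library, 456 CPM against 539 CPM in the control library, with intervals that did not meet. It was higher in the Cre library in each of the other fibroblast classes. The kinase Jak1 had 423 CPM in the Cre library and 426 CPM in the control library. The chains of the interferon gamma receptor, named here after their values were seen, were at similar levels over all fibroblast-gated cells. Ifngr1 had 157 CPM in the Cre library and 161 CPM in the control library, and Ifngr2 24.2 CPM in the Cre library and 23.2 CPM in the control library. By class, Ifngr1 was higher in the Cre library in Adamdec1-gated and Pi16-gated cells and lower in subepithelial-like cells and other fibroblasts, each beyond counting error.

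The autophagy genes that take part in loading these GTPases lay near the background of all genes. Of 14 measured, 0 were at least 1.5-fold higher, against 3.83% of all genes, and 0 were lower by that fold, against 3.17%, and the median log2 ratio was 0.07. Sqstm1, the autophagy receptor p62, had 1136 CPM in the Cre library and 1045 CPM in the control library. Gabarap, an ATG8 family protein, had 605 CPM in the Cre library and 594 CPM in the control library, and its relative Gabarapl1 had 105 CPM in the Cre library and 90.5 CPM in the control library. Atg7, the activating enzyme of ATG8 conjugation, had 17.6 CPM in the Cre library and 15.1 CPM in the control library. The count past 1.5-fold higher was also 0 of 14 in each of the 4 fibroblast classes, 1 of 14 in smooth muscle-like cells, against 7.6% of all genes, and 4 of 14 in glia-like cells, against 17.1%.

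The guanylate-binding proteins are a second family of interferon-inducible GTPases that also attack pathogen vacuoles. They stood past 1.5-fold higher in 8 of 8 measured genes, against 3.83% of all genes, and the median log2 ratio was 2.17. Of the 8, Gbp4, Gbp5, Gbp8 and Gbp9 reached the minimum only through the Cre library. Gbp2 had 189 CPM in the Cre library and 43.5 CPM in the control library, Gbp6 had 113 CPM in the Cre library and 19.9 CPM in the control library, and Gbp4 had 30.2 CPM in the Cre library and 2.69 CPM in the control library. Of 12 measured type I interferon antiviral genes, 11 stood past 1.5-fold higher, against 3.83% of all genes, and the median log2 ratio was 1.53. Oas1a and Usp18, 2 of the 12, reached the minimum only through the Cre library. Isg15, a ubiquitin-like modifier, had 226 CPM in the Cre library and 61.8 CPM in the control library, and Oas1a, an oligoadenylate synthetase, had 19.8 CPM in the Cre library and 2.70 CPM in the control library. Bst2, the virus-tethering protein tetherin, had 303 CPM in the Cre library and 158 CPM in the control library. Both medians lay below the 2.68 of the measured members, a description of these lists with no test.

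Genes outside the family whose levels over the 9 classes were most like those of the members were ranked by the lower Pearson r of the libraries, on log2 of CPM with 1 added. The points share a library and differ in depth, so r is a description. For the regulators the first was Herc6, with r of 0.94 in the Cre library and 0.91 in the control library, followed by Fam76a, Ezh2, Pitrm1 and Stard13. Of these, Ezh2 had 39.0 CPM in the Cre library and 39.4 CPM in the control library, near the same level. For the effectors the first was Xaf1, with r of 0.84 in the Cre library and 0.75 in the control library, followed by Gbp5, Rsrp1, Trim12a and Tap2. Gbp5 had 37.9 CPM in the Cre library and 7.16 CPM in the control library, and Rsrp1 487 CPM in the Cre library and 483 CPM in the control library.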

How the data were processed

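Per the labels, single cells were captured with a 10x Genomics 5' kit. The values deposited by the authors are unnormalised UMI counts for each feature in each barcode. They were made with Cell Ranger 8.0.1 on GRCm39, per the submitters' processing notes. Symbols were read from the deposited feature lists, and 0 sample columns were left unused. Barcodes were required to have 500 genes or more and no more than 10% of UMIs from mitochondrial genes. Doublets called by Scrublet (scanpy 1.11.5, expected rate 8%) were then removed, 111 in the Cre library and 393 in the control library. The score cutoffs were 0.404 in the Cre library and 0.326 in the control library, so these numbers do not compare doublets.

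Glia-like and lymphatic endothelium-like cells needed at least 3 of 8 markers, and mesothelium-like, smooth muscle-like and Cajal-like cells at least 4 of 8. Cells passing several gates, 9 in the Cre library and 14 in the control library, were set aside, and 393 in the Cre library and 373 in the control library passed none. Lists of markers were fixed, but thresholds and the 3 markers used in each of the Adamdec1 and Pi16 gates were chosen after marker counts were seen, without the members. The members and gene lists were chosen with earlier results of these data known.

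Counts were summed per class and divided by the class total to give CPM. Log2 ratios are Cre over control with 1 CPM added; plain ratios have nothing added. Sums carry exact Poisson, ratios exact binomial and shares Clopper-Pearson intervals. Genes averaging 10 CPM or more counted as measured. Classes with at least 50 cells in each library were compared. The genes named were all members, the 2 highest ratios and 2 most abundant genes of each list, and the 5 genes most like each group, of which a part is printed, and some genes are not reported here. Promoters came from RefSeq tables. The steps were tested on simulated data with python 3.11.15, numpy 2.4.6 and scipy 1.17.1. Alternatives covered filters, doublets, gates, scaling, added CPM, minimum level, thinning and the cells with most member UMIs.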

Additional observations from a re-analysis of the deposited data

How the results depend on the processing

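No paired analysis was possible because each genotype had 1 library. Of 532 log2 ratios of members and their sums listed under the alternatives, 529 were above 0 and 3 were below 0. Those 3 were all of Irgm1 in glia-like cells, where the ratio was near 0 in the first place. Of the 532, 83 moved beyond the counting interval of the reported value. The minimum level (50 CPM or none) does not enter a log2 ratio, so the values under these settings repeat those reported and could not move. With 10 CPM added the log2 ratio of Tgtp2 in Pi16-gated cells was 2.84, and in fibroblast-gated cells that of Gm4951 was 2.10 and that of Tgtp1 0.64. In fibroblast-gated cells, the log2 ratio of the summed regulators was 2.10 as reported, 1.99 with 10 CPM added, 2.05 with classes weighted alike and 2.17 without the 1% of cells with the most member UMIs. That of the effectors was 2.97 as reported, 2.86 with 10 CPM added and 3.27 without those cells. The regulator share was 30.7% in the Cre library with classes weighted alike; without those cells it was 32.0% in the Cre library and 50.4% in the control library. The share of cells with a member was 44.0% in the Cre library and 12.97% in the control library at 1000 UMIs per cell, and 77.8% in the Cre library and 44.1% in the control library without thinning. Members at least 1.5-fold higher numbered 6 at a minimum of 50 CPM, and 8 with none or with classes weighted alike. Those 6 were all the members that reached 50 CPM, since Gm4951, with a mean of 35.1 CPM, and Tgtp1 fell below it. As reported, 346 of all 9042 genes measured were past that fold higher and 287 lower. The counts were 138 higher and 112 lower at 50 CPM, and 761 higher and 651 lower with no minimum. Lower by that fold were 174 with 10 CPM added and 168 with classes weighted alike. The number of genes tested changes with the minimum, so these counts are not compared as shares. At 50 CPM the guanylate-binding list had 2 genes past the fold, the antiviral list 2 (17 with no minimum) and the further family names 0; fewer genes were tested there. Depth limits Tgtp1 and the glia-like class of the control library.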
